A study of Mus musculus with 12 samples.

Results

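Oxidative phosphorylation is carried out by 5 multi-subunit enzyme complexes of the inner mitochondrial membrane. Complexes I to IV pass electrons from NADH and succinate to oxygen and build up a proton gradient, and complex V, the ATP synthase, uses that gradient to make ATP. The subunits come from separate genomes. Most are encoded in the nucleus and imported, while a small core is encoded by mitochondrial DNA, which is transcribed from both strands as long precursors that are cut into single RNAs. In the testis some subunits are also replaced by germ-cell isoforms, and spermatogonia, the cells at the base of spermatogenesis, are held to shift their energy metabolism as they differentiate.

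Members were taken by gene name: rows named Nduf (a, b, c, s or v with a number), Cox4 to Cox8 with a letter a to c, Uqcr, Sdha to Sdhd or Atp5, without "-ps" in the name, together with the protein-coding genes of mitochondrial DNA (prefix mt-). The rule found 100 of 55385 rows, 87 nuclear and 13 mt-. It uses names and no measured value, but was set with earlier results of these data known. The nuclear members comprised 40 of complex I (NADH dehydrogenase), 4 of complex II (succinate dehydrogenase), 8 of complex III (cytochrome bc1), 17 of complex IV (cytochrome c oxidase) and 18 of complex V. The mt- members comprised 7 of complex I, 1 of complex III, 3 of complex IV and 2 of complex V. A few subunits fall outside the name rule (among them Cox4i1, Cyc1 and Ndufab1) and are given as a separate list. Of the nuclear members, 80 had at least 1 TPM in all 12 libraries, Cox6a2 and Ndufa4l2 reached 1 TPM in some, and 5 stayed under 1 TPM in all of them. TPM is a length-corrected share of the transcripts of a library. Cox6c2 and Cox8b were listed at 0 in every library. In the annotation 83 of the 87 are protein-coding and 4 (Ndufa11b, Ndufb4c, Ndufs6b and Cox6c2) are processed pseudogenes, of which Ndufb4c was listed at up to 614.5 TPM and may take reads of Ndufb4. The symbol Atp5o stands on 2 gene identifiers, 1 of them under 1 TPM throughout.

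The study sorted spermatogonia from mouse testes and made 12 bulk RNA-seq libraries in 6 groups of 2. Adult wild-type C57BL/6 males, aged 2 months or more, gave undifferentiated cells (WT Aundiff, sorted as E-Cadherin positive, CD9 high, KIT negative) and differentiating cells (WT Adiff, CD9 medium, KIT positive). The other 4 groups were Aundiff from C57BL/6 X FVB/NJ males aged about 2 months, all lacking Ring1 in every cell. PRC1cKO animals were Ring1-/-; Rnf2 F/-; Ddx4-Cre, and PRC1ctrl littermates were Ring1-/-; Rnf2 F/+; Ddx4-Cre. Ring1 and Rnf2 encode the catalytic subunits of Polycomb repressive complex 1. The floxed Rnf2 allele was targeted in germ cells only, where Ddx4-Cre acts, and the other Rnf2 allele was mutant in PRC1cKO and wild-type in PRC1ctrl. The labels were compared without treatment and after Win18446, a blocker of retinoic acid synthesis, given to males from 1 month of age as about 30 daily subcutaneous injections of 40 µg/µl in 50 µl DMSO, with sampling 24 h after the last. Cells were pooled for each replicate, so p-values measure the spread between such pools.

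Library kits differed between groups. The WT and the Win18446 libraries were made with a stranded poly(A) kit (TruSeq), and the untreated PRC1ctrl and PRC1cKO libraries with a low-input Smart-Seq2 kit. Levels are therefore set side by side across kits and tested only inside the 3 comparisons. Rnf2, the targeted gene, was at 28.3 and 47.6 TPM in untreated PRC1ctrl and 56.7 and 67.5 TPM in untreated PRC1cKO, and at 78.1 and 67.2 against 86.2 and 93.1 TPM after Win18446. Its level was thus not lower in the libraries labelled PRC1cKO, and a gene-level TPM does not show whether the floxed exon is present. Ring1 stood at 0.03 to 0.25 TPM in the 8 PRC1 libraries and at 8.61 to 19.9 TPM in WT. Between 12422 and 16599 genes reached 1 TPM per library. The read depth behind these values is unknown, since the table holds no counts. Spermatid markers summed to 761 and 1771 TPM in untreated PRC1ctrl against 64.8 and 58.7 TPM in untreated PRC1cKO, and to 140 and 128 against 25.9 and 23.6 TPM after Win18446. Markers of undifferentiated and differentiating spermatogonia were present in every library. In bulk samples fewer cells of a type and less RNA per cell cannot be told apart.

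To show the regulatory sequence in front of members that moved together, promoter windows (250 bases before to 50 after the RefSeq start, GRCm38.p6) were read for 68 nuclear members with 73 windows. Motif letters were searched on both strands, GCGCATGC (like that of NRF1, an activator of nuclear genes for respiration), CCGGAAGT (like that of ETS factors such as GABPA) and AAGATGGC (like that of YY1). At least 1 of them occurred in 24 of the 73 windows (32.9%) against 8.83% of 32851 windows of all genes. The NRF1-like letters were in 13.7%, the ETS-like in 6.85% and the YY1-like in 13.7% of the members' windows, against 2.71%, 3.89% and 2.75% of all windows. The windows below are those of the 3 highest-ranked members with a match among the genes higher in both TruSeq comparisons, followed by Cox7b, the member that fell most in WT Adiff and whose window holds no match. Ndufa1, Ndufa12 and Cox7a1 rank above these genes by the sum of their rises, and their windows hold no match either. Uqcrq ranks above Cox6a1 and Uqcr11, but no window of Uqcrq was among those read. Capitals mark the motifs, and each window runs 5′ to 3′ on the gene's strand.

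Atp5pb, chr3:105959214-105959513: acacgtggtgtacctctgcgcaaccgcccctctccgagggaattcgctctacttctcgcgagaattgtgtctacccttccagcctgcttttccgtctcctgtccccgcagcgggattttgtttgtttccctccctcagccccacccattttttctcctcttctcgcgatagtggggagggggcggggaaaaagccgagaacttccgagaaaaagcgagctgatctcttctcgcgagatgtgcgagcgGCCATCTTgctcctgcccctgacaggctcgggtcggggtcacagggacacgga
Cox6a1, chr5:115348909-115349208: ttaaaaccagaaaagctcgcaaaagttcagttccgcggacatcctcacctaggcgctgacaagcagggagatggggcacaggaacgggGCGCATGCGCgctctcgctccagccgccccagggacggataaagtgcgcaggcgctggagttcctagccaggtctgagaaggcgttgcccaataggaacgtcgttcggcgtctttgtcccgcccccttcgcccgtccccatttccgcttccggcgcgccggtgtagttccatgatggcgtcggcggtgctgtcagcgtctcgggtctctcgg
Uqcr11, chr10:80406772-80407071: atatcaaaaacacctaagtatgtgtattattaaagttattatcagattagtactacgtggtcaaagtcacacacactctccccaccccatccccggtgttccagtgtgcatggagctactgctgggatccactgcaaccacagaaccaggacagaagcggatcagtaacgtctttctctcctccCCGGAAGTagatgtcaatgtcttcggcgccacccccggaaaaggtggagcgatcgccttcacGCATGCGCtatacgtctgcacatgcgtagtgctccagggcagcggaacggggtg
Cox7b, chrX:106015450-106015749: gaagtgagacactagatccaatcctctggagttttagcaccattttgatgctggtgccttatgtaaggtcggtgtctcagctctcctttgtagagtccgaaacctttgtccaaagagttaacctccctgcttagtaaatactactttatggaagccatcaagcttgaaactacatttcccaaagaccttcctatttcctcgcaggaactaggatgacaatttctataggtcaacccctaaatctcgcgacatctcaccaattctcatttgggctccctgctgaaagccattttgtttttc

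The Atp5pb window (minus strand) carries the YY1-like letters at its start site, the Cox6a1 window (minus strand) the NRF1-like letters on both strands, overlapping, and the Uqcr11 window (minus strand) an ETS-like and an NRF1-like match. The Cox7b window lies on the plus strand. A match describes letters only, and risen members were found both with and without one.

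Across the whole set, the nuclear members took a larger share of the transcriptome in WT Adiff than in WT Aundiff, and in the libraries labelled PRC1cKO than in PRC1ctrl after Win18446, while the mt- members did not rise with them. The nuclear members summed to 22995 and 23251 TPM in WT Aundiff and to 27522 and 29199 TPM in WT Adiff. They summed to 18799 and 17923 TPM in PRC1ctrl and to 22467 and 22750 TPM in PRC1cKO after Win18446. In both comparisons the groups did not overlap. In the untreated libraries the sums were 40885 and 31657 TPM for PRC1ctrl and 39203 and 36937 TPM for PRC1cKO, so that the PRC1cKO values lay inside the range of PRC1ctrl. With 2 libraries a side an exact two-sided permutation test of a sum cannot give a p below 0.33.

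The 13 mt- members took more TPM than all nuclear members together. They summed to 59519 and 45757 TPM in WT Aundiff and 49069 and 42091 TPM in WT Adiff, and to 55691 and 56696 TPM against 65700 and 50417 TPM after Win18446. These groups overlapped. In the untreated libraries the sums were 161724 and 144433 TPM for PRC1ctrl and 140000 and 122821 TPM for PRC1cKO, which did not overlap. The ratio of mt- to nuclear sums was 2.59 and 1.97 in WT Aundiff against 1.78 and 1.44 in WT Adiff, 3.96 and 4.56 against 3.57 and 3.33 in the untreated pair, and 2.96 and 3.16 against 2.92 and 2.22 after Win18446. It was lower in both case libraries than in both controls in every comparison, a pattern that rests on 2 libraries a side.

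**Figure D1:**
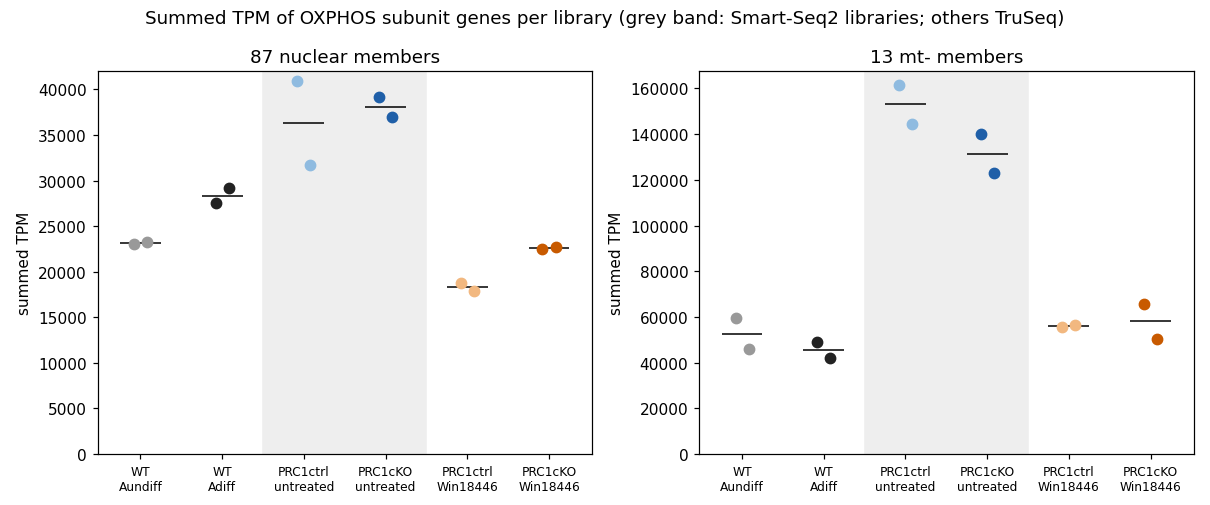
Summed TPM (y axis) of the 87 nuclear (left) and the 13 mt- members (right) in each library (points), with the mean of each group (line); both axes start at 0 and the grey band marks the Smart-Seq2 libraries. The nuclear sums of WT Adiff and of PRC1cKO after Win18446 lie above those of their controls, and the mt- sums of these groups overlap.

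The first comparison asks how subunit expression differs between differentiating and undifferentiated wild-type spermatogonia. Differences are given as log2(TPM + 1) values with a standard error (SE) and a Benjamini-Hochberg adjusted p from limma, over all 15470 genes tested, and a gene is said to have risen or fallen at an adjusted p under 0.05. In WT Adiff 28 of the 81 nuclear members tested rose (34.6%, against 23.4% of all genes tested) and 7 fell (8.64%, against 14.7%). Of these, 5 rose and 5 fell by more than 1 on the log2 scale, as 11.1% and 9.24% of all genes did. The median difference was 0.26 for the members and 0.15 for all genes. After scaling by median of ratios, 17 rose and 9 fell, with 16.0% of all genes higher and 18.3% lower and a median of 0.09. Leaving out WT Aundiff replicate 1 left 12 risen and 4 fallen, and leaving out WT Aundiff replicate 2 left 14 risen. The share of all genes that rose was smaller as well without either Aundiff library. Both Adiff libraries lay above both Aundiff libraries for 49 members (60.5%, against 43.4% of all genes) and below them for 12 (14.8%, against 28.7%).

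Among complex I subunits, 11 of 38 rose (28.95%, against 23.4% of all genes) and 4 fell (10.5%, against 14.7%). Ndufa1, a small membrane-arm subunit needed for assembly of the complex, was at 59.4 and 55.3 TPM in WT Aundiff and 149 and 141 TPM in WT Adiff, and rose by 1.32 (SE 0.12, adjusted p = 0.0015). Ndufa12, an accessory subunit, was at 43.1 and 36.7 against 96.4 and 86.0 TPM, and rose by 1.18 (SE 0.15, adjusted p = 0.0030). The groups were far apart for both genes. Ndufb11, another membrane-arm subunit encoded on the X chromosome, moved the other way, from 205 and 203 TPM to 75.2 and 84.0 TPM, a difference of -1.35 (SE 0.12, adjusted p = 0.0014). Of its exon bases 12.9% overlap Rbm10 on the other strand. Ndufv3, an accessory subunit of the NADH-oxidising module, fell from 190 and 197 TPM to 86.0 and 105 TPM, a difference of -1.02 (SE 0.14, adjusted p = 0.0037). The remaining falls in this complex were those of Ndufv1, the subunit that binds NADH, by 0.45 on the log2 scale, and of the pseudogene Ndufb4c by 0.50. Ndufs1, the largest subunit of the peripheral arm, was at 70.1 and 67.8 against 91.6 and 76.7 TPM and did not pass (0.28, SE 0.14, adjusted p = 0.17).

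In complex II, 2 of 4 subunits rose (50%, against 23.4% of all genes) and none fell (against 14.7%). Sdha, the catalytic flavoprotein that oxidises succinate, was at 154 and 179 TPM in WT Aundiff and 291 and 264 TPM in WT Adiff (0.74, SE 0.13, adjusted p = 0.0080). The iron-sulfur subunit Sdhb rose by 0.41 (adjusted p = 0.039), while the membrane anchors Sdhc and Sdhd did not pass. In complex III, 3 of 8 rose (37.5%) and none fell. These included Uqcr11 (0.95) and Uqcrq (0.79), small accessory subunits. Uqcrc1, a core subunit, was at 263 and 293 against 310 and 371 TPM and did not pass (0.29, SE 0.14, adjusted p = 0.14). In complex V, 5 of 17 rose (29.4%) and none fell. Atp5pb, a subunit of the peripheral stalk, rose from 127 and 103 TPM to 294 and 270 TPM (1.29, SE 0.14, adjusted p = 0.0021). Atp5b, the catalytic beta subunit, was among the most abundant nuclear members at 1085 and 1149 TPM against 1191 and 1245 TPM and did not pass (0.13, SE 0.10, adjusted p = 0.38).

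Complex IV held both the largest rise and the largest fall of the nuclear members. Of its 14 subunits tested 7 rose (50%, against 23.4% of all genes) and 3 fell (21.4%, against 14.7%). Several of its subunits come as a widely expressed form and a form restricted to muscle, heart or testis. Cox7a1, the form known from heart and muscle, was at 13.9 and 13.5 TPM in WT Aundiff and 35.7 and 41.3 TPM in WT Adiff (1.42, SE 0.16, adjusted p = 0.0023). Its widely expressed partner Cox7a2 stayed the more abundant one, at 294 and 291 against 439 and 396 TPM (0.51, SE 0.11, adjusted p = 0.017). Cox7a1 thus made up 4.51% and 4.44% of the TPM of the pair in Aundiff and 7.52% and 9.44% in Adiff.

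Cox6b2, the testis form of a subunit at the interface of the oxidase dimer, rose from 21.1 and 26.7 TPM to 45.02 and 52.13 TPM (1.00, SE 0.18, adjusted p = 0.0080), whereas Cox6b1 was at 571 and 539 against 549 and 501 TPM (-0.08, SE 0.11, adjusted p = 0.61). Cox6b2 made up 3.56% and 4.72% of this pair in Aundiff and 7.57% and 9.42% in Adiff. Both forms of the COX7B subunit fell. Cox7b went from 114 and 143 TPM to 61.1 and 39.0 TPM (-1.37, SE 0.24, adjusted p = 0.0071), and Cox7b2, the testis form, from 80.7 and 51.6 TPM to 41.1 and 24.1 TPM (-1.01, SE 0.31, adjusted p = 0.046). The share of Cox7b2 in this pair was 41.4% and 26.5% in Aundiff and 40.2% and 38.2% in Adiff, which overlap.

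Cox7a2l, a factor that joins complexes III and IV into supercomplexes, fell from 425 and 398 TPM to 195 and 193 TPM (-1.08, SE 0.11, adjusted p = 0.0018). Of the remaining isoform pairs, Cox6a1 rose by 0.81 (SE 0.15, adjusted p = 0.0095) from 658 and 762 TPM to 1101 and 1397 TPM, while Cox6a2, known from heart and muscle, stayed under 1 TPM in these libraries. Ndufa4, a subunit of complex IV despite its name and counted with complex I by the name rule, rose by 0.92 (SE 0.13, adjusted p = 0.0042). Its relative Ndufa4l2 was at 0.29 to 2.65 TPM (-0.02, adjusted p = 0.98). Cox8a (0.19, adjusted p = 0.35) and Cox8c (0.48, adjusted p = 0.17) did not pass. Cox5a, the lead subunit chosen for complex IV, rose by 0.71 (SE 0.12, adjusted p = 0.0063).

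The mt- members did not take part in this rise. None of the 13 rose, against 23.4% of all genes, and 2 fell (15.4%, near the 14.7% of all genes). Their median difference was -0.16, against 0.15 for all genes. mt-Nd6, the only protein-coding gene on the opposite strand of mitochondrial DNA, was at 1243 and 906 TPM in WT Aundiff and 754 and 592 TPM in WT Adiff (-0.67, SE 0.19, adjusted p = 0.036). mt-Nd5, which overlaps the end of mt-Nd6, was at 1144 and 893 against 731 and 650 TPM (-0.55, SE 0.15, adjusted p = 0.031). Both are subunits of complex I, and both calls were lost without WT Aundiff replicate 1. mt-Atp6 rose in value from 253 and 407 TPM to 495 and 846 TPM but did not pass (1.01, SE 0.34, adjusted p = 0.075). mt-Nd3 was at 178 and 19.2 against 35.2 and 219 TPM, and mt-Co2 at 2320 and 1682 against 775 and 2366 TPM, so that the libraries of 1 group differed more than the groups. The remaining differences were -0.17 for mt-Nd1, -0.15 for mt-Nd2, -0.26 for mt-Nd4, -0.12 for mt-Nd4l, -0.06 for mt-Cytb, -0.16 for mt-Co1, 0.26 for mt-Co3 and -0.40 for mt-Atp8, with adjusted p from 0.23 to 0.84.

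**Figure D2:**
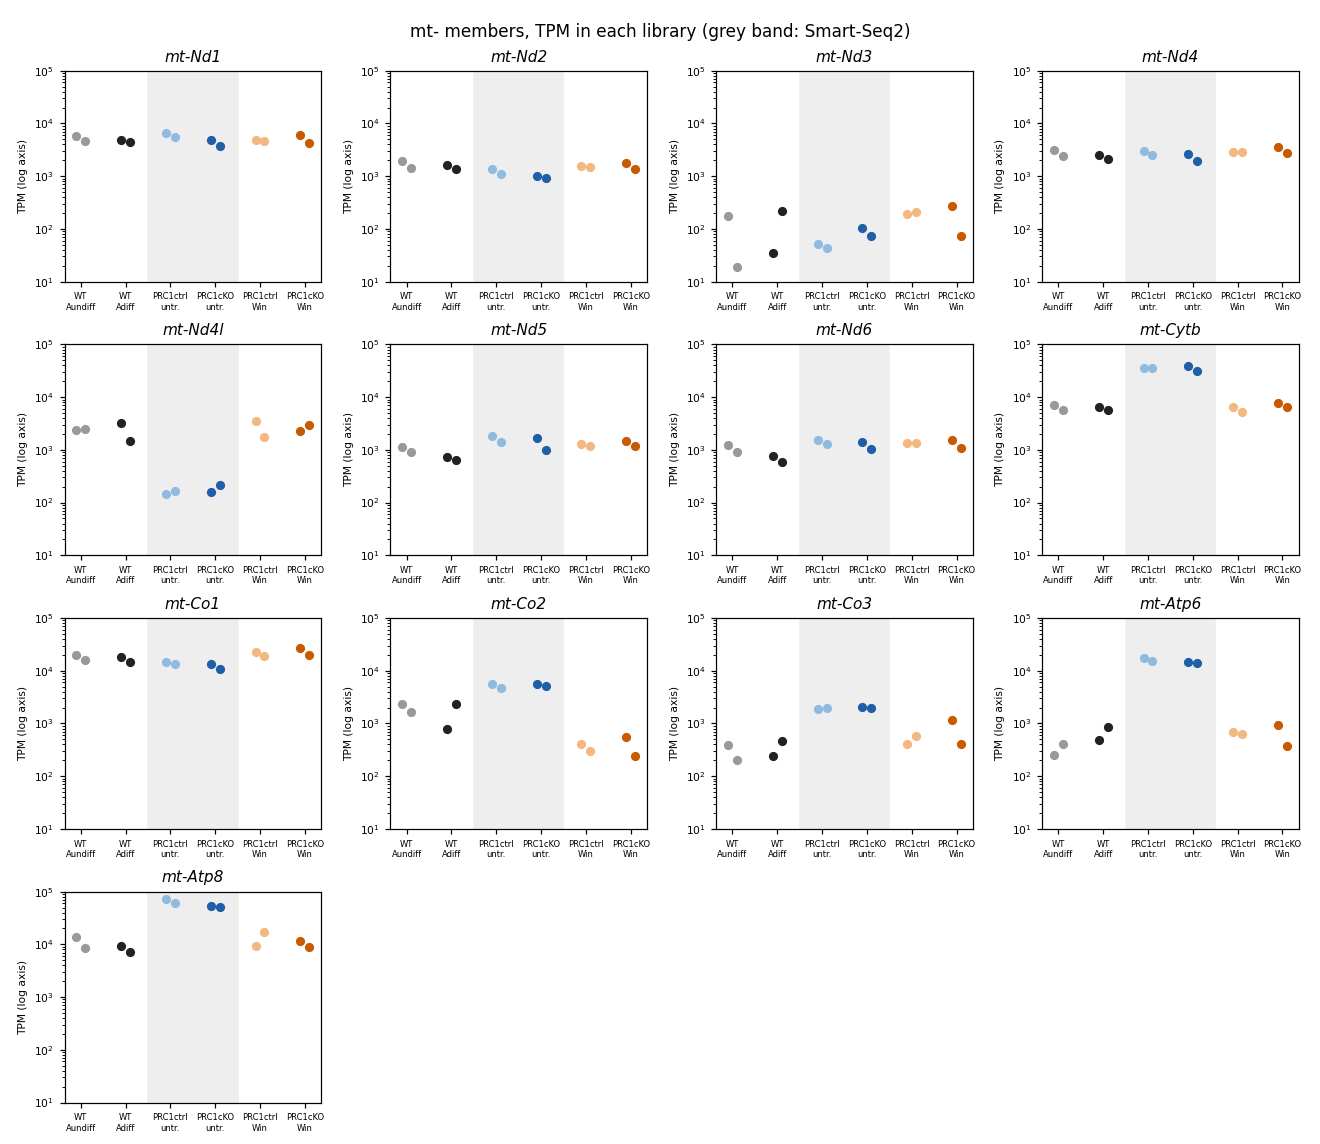
TPM (log axis, the same range in each panel) of the 13 mt- members in each library, with 2 points per group and a grey band for the Smart-Seq2 libraries. mt-Atp6, mt-Atp8, mt-Cytb, mt-Co2 and mt-Co3 were higher and mt-Nd4l and mt-Nd2 lower in all 4 Smart-Seq2 libraries than in all 8 TruSeq libraries.

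The other lists of the pathway are read against the 23.4% of all genes that rose and the 14.7% that fell. In WT Adiff 8 of 46 assembly factors rose (17.4%) and 1 fell (2.17%), led by Ndufaf8 (1.28) and Cox11 (1.25). Of the mitochondrial ribosomal proteins, which build the ribosome for the mt- messages, 20 of 78 rose (25.6%) and 8 fell (10.3%), led by Mrpl18 (1.11) and Mrpl54 (1.07). The tricarboxylic acid cycle list also holds genes of pyruvate dehydrogenase and of the pyruvate carrier. It was split, with 6 of 21 risen and 6 fallen (28.6% each). Suclg2 rose by 1.51, and Pdha1, the X-linked E1 subunit of pyruvate dehydrogenase, fell by 1.46. Genes for expression of mitochondrial DNA were split as well, with 5 of 37 risen (13.5%) and 4 fallen (10.8%), among them Slirp (-1.10), which protects mt- messages, and Polg (0.98), the mitochondrial DNA polymerase. Of the nuclear regulators 3 of 8 rose (37.5%) and 1 fell (12.5%), and the leading genes were Gabpa (1.58) and Gabpb1 (1.18). Coq7 (0.91) and Coq5 (0.71) were the 2 of 13 coenzyme Q genes that rose (15.4%), with none fallen. Cyc1, a complex III subunit outside the name rule, was the 1 of 8 such subunits that rose (0.83). The share of risen genes was thus below that of all genes for assembly factors, coenzyme Q genes, genes for expression of mitochondrial DNA and subunits outside the rule, and near it for the ribosomal proteins.

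The sorted populations differed by their markers, which are read against the 23.4% of all genes that rose and the 14.7% that fell. Kit, a gene used for the sort, went from 6.38 and 6.96 TPM to 247 and 245 TPM. Of the 7 markers of differentiating spermatogonia, Kit among them, 5 rose and 1 fell, with a lowest value of -0.72. Of 9 markers of undifferentiated spermatogonia 8 fell, led by Nanos3 (-4.06) and Ret (-4.05). Of 8 cell-cycle genes 7 rose, led by Mki67 (2.15) and Mcm2 (1.41), and the summed level of this list was 826 and 790 TPM in Aundiff and 1759 and 1647 TPM in Adiff. Sertoli-cell markers summed to 49.9 and 54.3 TPM against 32.0 and 31.4 TPM, with 3 of 4 tested lower, led by Rhox5 (-1.21) and Wt1 (-0.82). Of 8 spermatid markers 3 fell (37.5%), led by Spaca1 (-0.84) and Odf1 (-0.57). Sycp1 (0.66) was the 1 of 8 spermatocyte markers that rose (12.5%, below the share of all genes). None of the 4 Leydig, 3 macrophage and 3 peritubular markers tested passed, all at an unadjusted p above 0.05. The part of these lists in the subunit differences was not tested.

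**Figure D3:**
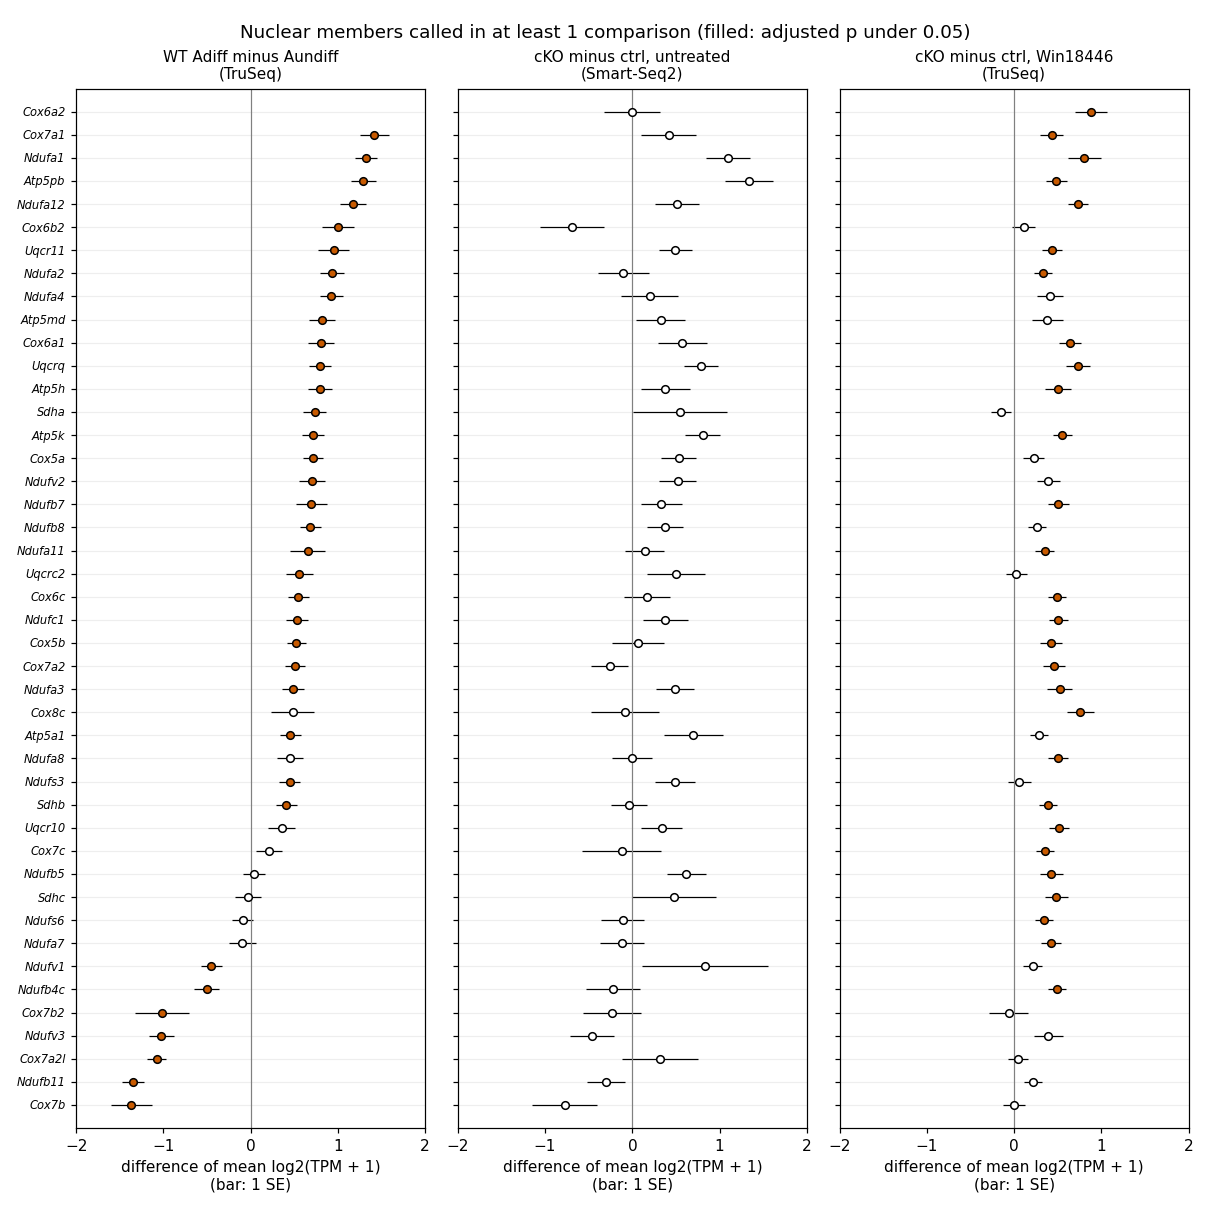
Difference of mean log2(TPM + 1) (x axis, bar 1 SE) in the 3 comparisons for the nuclear members at an adjusted p under 0.05 in at least 1 of them (rows, ordered by WT; filled points passed). In WT the points run from -1.37 (Cox7b) to 1.42 (Cox7a1), in the untreated pair no point passed, and after Win18446 every filled point lies above 0.

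The second comparison sets PRC1cKO against PRC1ctrl Aundiff without treatment. None of the 81 nuclear members tested passed an adjusted p of 0.05 by limma, against 0.222% of 13953 genes higher and 1.94% lower, and 7 had an unadjusted p under 0.05 (8.64%, against 14.2% of all genes), all with higher values in the libraries labelled PRC1cKO. With a replicate block, for which no label gives a ground, 10 passed, when 11.2% of all genes were higher and 8.82% lower. The median difference was 0.13, below that of all genes (0.22), and became -0.18 after scaling by median of ratios. Both PRC1cKO libraries were above both PRC1ctrl libraries for 22 members (27.2%, against 27.5% of all genes) and below for 9 (11.1%, against 17.3%), so that neither share was above the background.

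Atp5pb had the largest positive value, at 119 and 170 TPM in PRC1ctrl and 332 and 393 TPM in PRC1cKO (1.34, SE 0.27, adjusted p = 0.089). Ndufa1 was at 200 and 145 against 380 and 351 TPM (1.10, SE 0.25, adjusted p = 0.12). For both genes the groups did not overlap. Uqcrc1 came next by size, at 95.4 and 706 against 324 and 936 TPM (1.08, SE 1.00, adjusted p = 0.67), and here replicates of 1 label differed more than the labels. The largest negative values were those of Cox7b (130 and 72.7 against 62.8 and 50.7 TPM; -0.77, adjusted p = 0.44), Cox6b2 (15.7 and 17.2 against 9.47 and 10.2 TPM; -0.69, adjusted p = 0.48) and Ndufv3 (487 and 347 against 309 and 286 TPM; -0.47). The groups did not overlap for these 3 genes either.

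The lead subunits Ndufs1 (0.59), Sdha (0.55), Cox5a (0.53) and Atp5b (0.21) had positive values that did not pass. Among the isoforms, Cox6a1 (0.57) and Cox7a1 (0.42) had positive values and Cox7a2 (-0.26) and Cox7b2 (-0.23) negative ones, with adjusted p of 0.45 to 0.78. Values for Cox6b1, Cox8a, Cox8c, Cox6a2 and Ndufa4 ran from -0.10 to 0.20. No mt- member passed, and 3 had an unadjusted p under 0.05: mt-Nd1 (-0.51), mt-Atp8 (-0.35) and mt-Nd3 (0.87). mt-Nd1 was at 6505 and 5579 TPM in PRC1ctrl and 4864 and 3684 TPM in PRC1cKO, and mt-Atp8 at 71412 and 61965 against 53639 and 50975 TPM. The median over the 13 was -0.24. The rest ran from -0.36 for mt-Nd2 to 0.28 for mt-Nd4l, with mt-Nd5, mt-Nd4, mt-Co1, mt-Nd6 and mt-Atp6 between -0.33 and -0.19 and mt-Cytb, mt-Co3 and mt-Co2 between -0.03 and 0.09.

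No gene of the assembly factor, tricarboxylic acid cycle, mitochondrial ribosomal, coenzyme Q, regulator or mitochondrial DNA expression lists passed in the untreated pair. In this order, 2 of 46, 0 of 21, 5 of 78, 0 of 12, 0 of 6 and 1 of 37 had an unadjusted p under 0.05. No subunit outside the rule passed either (0 of 8 at that level). The marker lists are read against the 0.222% of all genes that rose and the 1.94% that fell. Of these lists, 5 of 6 spermatid markers fell, led by Prm1 (-8.14) and Tnp2 (-7.82). Pgk2 (-5.39) and Ldhc (-4.59) were the 2 of 9 spermatocyte markers that fell, and 5 of the 9 had values above 0. Both Pgk2 and Ldhc encode germ-cell forms of glycolytic enzymes. Nanos3 (-1.86) was the 1 of 9 markers of undifferentiated spermatogonia that fell, and 4 of the 9 had values above 0. Hsd3b1 (2.88) was the 1 of 5 Leydig markers that rose. Leydig markers summed to 1.01 and 1.18 TPM in PRC1ctrl and 20.6 and 46.7 TPM in PRC1cKO. Cell-cycle genes summed to 816 and 940 against 1422 and 1368 TPM, but none of 8 passed (3 at an unadjusted p under 0.05). No Sertoli, macrophage, peritubular or differentiating-spermatogonia marker passed (1, 1, 0 and 3 at an unadjusted p under 0.05). The part of these lists in the subunit values was not tested.

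**Figure D4:**
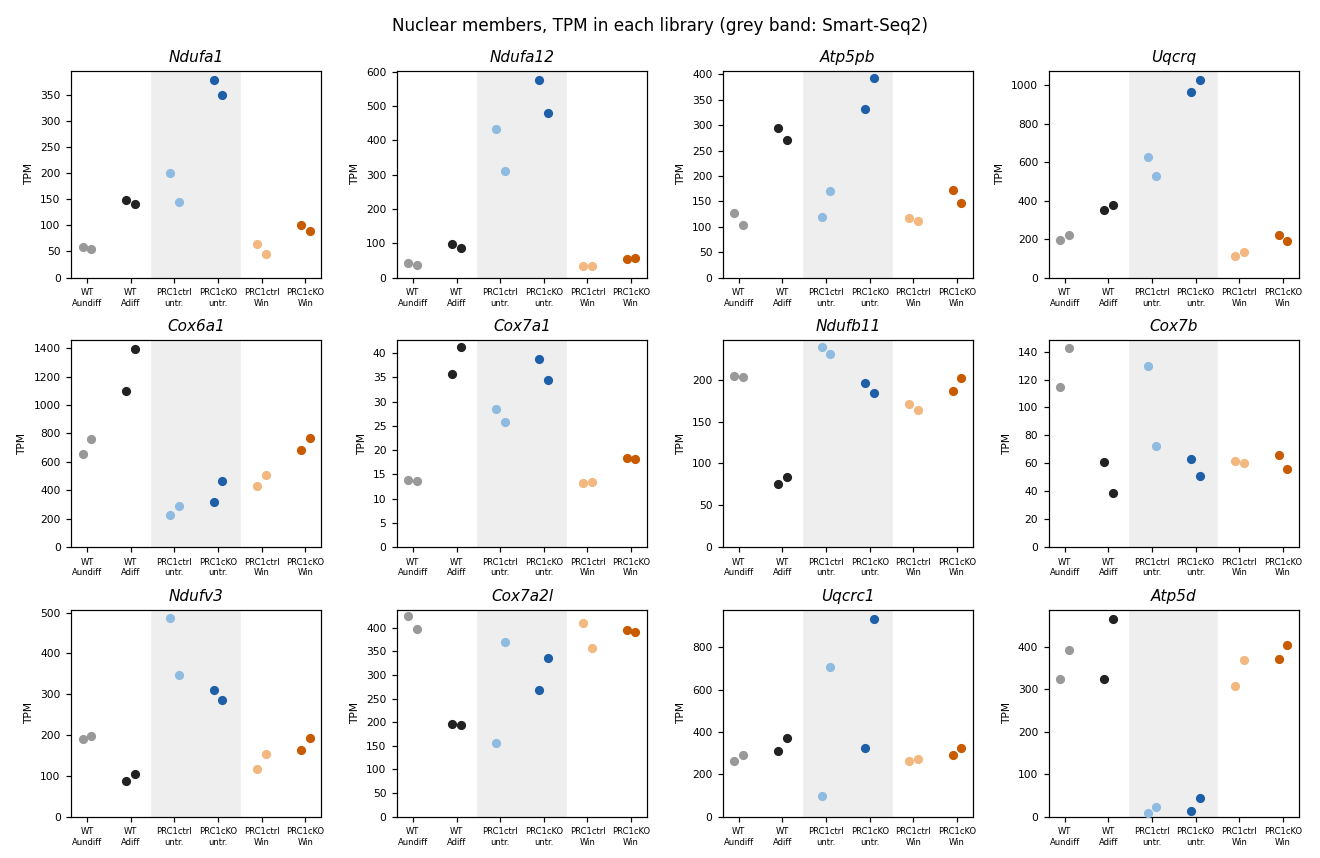
TPM (y axis from 0, a separate range in each panel) of 12 nuclear members in each library, 2 points per group, with a grey band for the Smart-Seq2 libraries. Ndufa1, Ndufa12, Atp5pb, Uqcrq, Cox6a1 and Cox7a1 were higher in both case libraries of each comparison, Ndufb11, Cox7b, Ndufv3 and Cox7a2l were lower in both WT Adiff libraries, Uqcrc1 varied within the untreated groups and Atp5d was at 7.69 to 43.7 TPM in the Smart-Seq2 libraries.

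The third comparison sets PRC1cKO against PRC1ctrl after Win18446, which was given to block retinoic acid synthesis. Here nuclear subunits rose where more of all genes fell than rose. Of the 82 members tested, 28 rose (34.1%) and none fell, whereas 5.87% of the 16521 genes tested rose and 26.7% fell. The median difference was 0.31 for the members and -0.19 for all genes, and 73 of the 82 had values above 0. Both PRC1cKO libraries lay above both PRC1ctrl libraries for 61 members (74.4%, against 20.1% of all genes) and below for 2 (2.44%, against 49.3%). The differences were small: none exceeded a log2 value of 1, a size that 1.27% of all genes passed on the higher side. After scaling by median of ratios 60 rose and none fell, with a median of 0.55, when 15.5% of all genes rose, 17.7% fell and their median was 0.03, so that the downward direction of all genes was lost under this scaling.

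The number that passed depended on single libraries. It was 2 without PRC1cKO replicate 1, 4 without PRC1cKO replicate 2, 27 without PRC1ctrl replicate 1 and 20 without PRC1ctrl replicate 2, where 1 also fell, and 7 with no filter on low values. The share of all genes that rose was smaller as well without either PRC1cKO library, and was 1.19% with no filter. The median difference of the members stayed between 0.27 and 0.32 across the libraries left out.

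Every complex had members that rose, where 5.87% of all genes did. These were 12 of 38 for complex I (31.6%), 2 of 4 for complex II (50%), 3 of 8 for complex III (37.5%), 8 of 15 for complex IV (53.3%) and 3 of 17 for complex V (17.65%). Ndufa1 was at 64.4 and 44.6 TPM in PRC1ctrl and 100 and 89.0 TPM in PRC1cKO (0.81, SE 0.19, adjusted p = 0.020). Ndufa12 was at 33.6 and 33.0 against 54.6 and 57.5 TPM (0.73, SE 0.11, adjusted p = 0.0052). Uqcrq was at 112 and 135 against 223 and 188 TPM (0.73, SE 0.14, adjusted p = 0.010). None of these overlapped between labels. The X-linked Cox7b, which fell in WT Adiff, was at 61.4 and 59.9 against 65.8 and 55.7 TPM (-0.0022, SE 0.13, adjusted p = 0.99), with labels that overlapped.

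Among the isoforms, Cox6a2 had the largest rise on this scale at a very low level, from 1.31 and 1.26 TPM to 2.86 and 3.56 TPM (0.88, SE 0.18, adjusted p = 0.013), and made up 0.415% and 0.462% of the Cox6a pair in PRC1cKO against 0.305% and 0.249% in PRC1ctrl. Cox6a1 rose from 428 and 506 TPM to 686 and 767 TPM (0.64, SE 0.13, adjusted p = 0.011). Cox8c, the testis form of COX8, rose from 16.5 and 12.8 TPM to 24.8 and 25.9 TPM (0.76, SE 0.16, adjusted p = 0.013). Cox8a did not pass (0.59, SE 0.23, adjusted p = 0.10), and Cox8c made up 4.94% and 2.45% of this pair in PRC1ctrl and 4.02% and 4.0% in PRC1cKO, which overlap. Cox7a1 (0.43) and Cox7a2 (0.46) rose by nearly equal amounts. Cox6b2 (0.11), Cox6b1 (0.10), Cox7b2 (-0.06), Ndufa4 (0.41) and Ndufa4l2 (0.05) did not pass, with adjusted p from 0.080 to 0.91.

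The lead subunits of the 5 complexes did not pass. Ndufs1 was at 99.2 and 90.5 against 85.4 and 81.0 TPM (-0.19, SE 0.11, adjusted p = 0.25), and Sdha at 206 and 183 against 166 and 183 TPM (-0.15, SE 0.12, adjusted p = 0.36). Uqcrc1 (0.20), Cox5a (0.22) and Atp5b (0.13) had adjusted p of 0.19 to 0.38. The most negative values among nuclear members were those of Atp5g2 (-0.48), a gene for the c-ring subunit listed at 16.89 and 12.95 against 9.42 and 11.24 TPM, of Ndufb4 (-0.25) and of Ndufs1. The members have short transcripts, with a median of 997.5 bases for the longest transcript against 2961 bases for all genes tested. Across all genes the difference in this comparison had a Spearman correlation of -0.24 with the length of the longest transcript, and across the 82 members of -0.18. The part of transcript length in the result was not tested.

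No mt- member passed after Win18446, and none had an unadjusted p under 0.05 by limma. The median was 0.08, with values from -0.49 for mt-Nd3 to 0.49 for mt-Co3. mt-Co1, the catalytic subunit of complex IV, was at 22731 and 19019 TPM in PRC1ctrl and 26546 and 20053 TPM in PRC1cKO (0.15, SE 0.17, adjusted p = 0.54). mt-Cytb, the mt- subunit of complex III, had 0.29 (SE 0.16, adjusted p = 0.20). PRC1cKO replicate 1 held the highest level of 11 of the 13 mt- genes among these 4 libraries, and PRC1cKO replicate 2 the lowest of 9. The complex I genes mt-Nd1, mt-Nd2, mt-Nd4, mt-Nd4l, mt-Nd5 and mt-Nd6 ran from -0.05 to 0.14, mt-Co2 was at 0.08, mt-Atp6 at -0.15 and mt-Atp8 at -0.31.

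The other lists of the pathway are read against the 5.87% of all genes that rose and the 26.7% that fell. Of 78 mitochondrial ribosomal proteins 9 rose (11.5%) and none fell, led by Mrps23 (0.74) and Mrpl57 (0.66). Their median was 0.20, 66 had values above 0, and both PRC1cKO libraries lay above both PRC1ctrl libraries for 60.3% of them, against 20.1% of all genes. Of the 8 subunits outside the name rule 2 rose (25%), Cox4i2 (0.79, under 3 TPM) and Cox4i1 (0.37). None of 21 genes of the tricarboxylic acid cycle list passed (2 at an unadjusted p under 0.05), nor did any of 13 coenzyme Q genes (2 at that level). Of 45 assembly factors 4 rose and 4 fell (8.89% each), led by Cox20 (-0.91) and Cox18 (-0.63), which help to assemble complex IV. Genes for expression of mitochondrial DNA fell in 8 of 37 cases (21.6%) and rose in none, led by Mterf3 (-0.85) and Polg (-0.64). Of 8 nuclear regulators 2 fell (25%), the coactivators Pprc1 (-0.82) and Ppargc1b (-0.75), and none rose. Neither share of fallen genes was above that of all genes.

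Cell markers are read against the same shares, the 5.87% of all genes that rose and the 26.7% that fell. Of 7 markers of differentiating spermatogonia 4 rose and 1 fell, led by Dmrtb1 (1.66) and Kit (1.42). Of 9 undifferentiated markers 2 fell, Neurog3 (-1.11) and Zbtb16 (-0.78), a share (22.2%) below that of all genes. Of 8 cell-cycle genes Ccnb1 (0.63) and Ccna2 (0.53) rose, with a summed level of 601 and 596 TPM in PRC1ctrl and 747 and 812 TPM in PRC1cKO. Spermatid markers fell in 5 of 6 cases, led by Prm2 (-5.07) and Prm1 (-5.00), and spermatocyte markers in 4 of 9, led by Pgk2 (-1.72) and Spo11 (-1.33). Des, a peritubular marker, rose (0.81), with 6.07 and 8.13 TPM in PRC1cKO. Leydig markers summed to 396 and 81.9 TPM in PRC1ctrl against 72.4 and 20.2 TPM in PRC1cKO, and neither these nor the Sertoli and macrophage markers passed (1 of 5, 0 of 5 and 1 of 4 at an unadjusted p under 0.05). The part of these lists in the subunit differences was not tested.

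The 3 comparisons share no library, so their members can be set beside one another. Of the 80 nuclear members tested in each, 28 rose in WT Adiff and 27 in PRC1cKO after Win18446, and 18 rose in both, which is 64.3% of the former and 66.7% of the latter. Over the 14499 genes tested in both comparisons, 363 rose in both, which is 10.4% of the 3475 that rose in WT Adiff and 44.2% of the 821 that rose after Win18446. The members and all genes start from unequal rates. Of the members tested in each comparison, 34.6% rose in WT Adiff and 34.1% after Win18446, against 23.4% and 5.87% of all genes. Whether the overlap exceeds what these rates give was not tested. These 18 were Ndufa1, Ndufa12, Cox7a1, Atp5pb, Uqcrq, Cox6a1, Uqcr11, Atp5h, Atp5k, Ndufa2, Ndufb7, Ndufc1, Cox6c, Ndufa3, Ndufa11, Cox7a2, Cox5b and Sdhb. None of the 5 lead subunits was among them. In the untreated pair 15 of the 18 had values above 0 (83.3%) and 10 had both PRC1cKO libraries above both PRC1ctrl libraries (55.6%), without passing the test. These shares were 65.1% and 27.5% over all genes tested in the untreated pair, and 93.7% and 69% over the 284 of them that rose in both of the other comparisons, so that both shares of the 18 members lay below those of these genes. Across the 80 members the WT and Win18446 differences had a Pearson correlation of 0.44 and a Spearman correlation of 0.48, against 0.13 and 0.11 across the 14499 genes tested in both. WT and untreated differences had 0.50 and 0.50 across members against 0.32 and 0.41 across 12155 genes, and untreated and Win18446 differences 0.26 and 0.26 against 0.30 and 0.27 across 12334 genes. Genes are not independent replicates, and these values describe the libraries. Of the 7 members that fell in WT Adiff, 5 had values above 0 after Win18446 and 1 (Ndufb4c) rose there. Of all 82 nuclear members tested after Win18446, 73 had values above 0 (89.0%) and 28 rose (34.1%), so neither share of the 7 was above that of the members. Of all genes tested there, 34.2% had values above 0 and 5.87% rose.

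**Figure D5:**
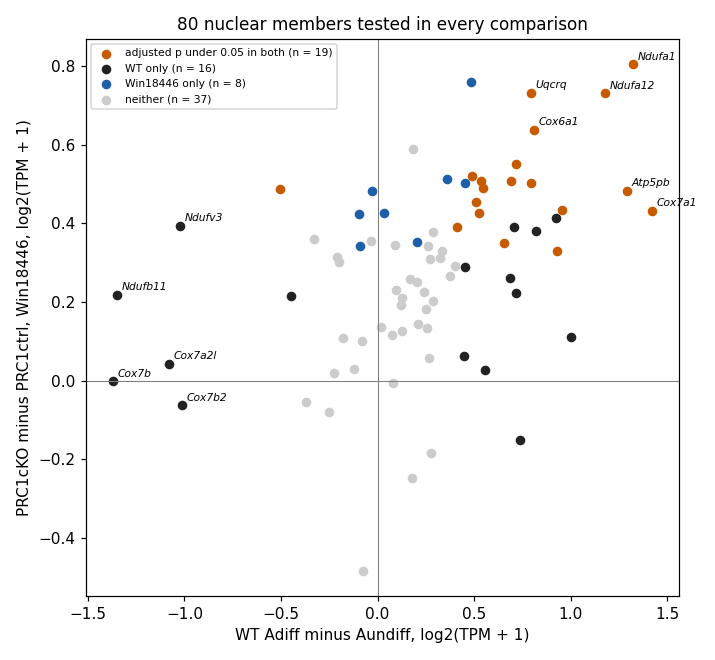
Differences of log2(TPM + 1) for the 80 nuclear members tested in every comparison, WT Adiff minus Aundiff on the x axis and PRC1cKO minus PRC1ctrl after Win18446 on the y axis, coloured by where the adjusted p was under 0.05. Most points lie above 0 on the y axis, 18 of the 19 points called in both lie at the upper right, and Cox7b, Ndufb11, Cox7a2l, Ndufv3 and Cox7b2 lie at the left.

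Whether the difference between labels changed with treatment was tested as an interaction over the 8 PRC1 libraries, in which treatment and library kit cannot be told apart. None of the 82 nuclear and none of the 13 mt- members passed by limma, against 7.81% of 18354 genes, and 9 nuclear (11%) and 0 mt- members had an unadjusted p under 0.05, against 24.7% of all genes. The share of all genes that passed ran from 0.116% to 8.17% without 1 library, was under 1% without any 1 of the 4 Win18446 libraries, and was 2.56% with a pseudocount of 0.1. The smallest were those of Cox6a2 (0.88, SE 0.28, adjusted p = 0.11) and Cox7a2 (0.72, SE 0.24, adjusted p = 0.13). Without untreated PRC1ctrl replicate 2, 4 nuclear members passed as higher. With all libraries the rise after Win18446 was not shown to differ from the values in the untreated pair. The median interaction was 0.17 for nuclear members against -0.41 for all genes, and became 0.88 against 0.14 after scaling by median of ratios, which also turned the direction of all genes.

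Levels differed strongly with the library kit. All 4 Smart-Seq2 libraries lay above all 8 TruSeq libraries for 35 of 82 nuclear members (42.7%, against 10.8% of 19210 genes) and below for 9 (11%, against 34.3%). Atp5d, the delta subunit of the ATP synthase, was at 7.69 to 43.7 TPM in Smart-Seq2 and 308 to 464 TPM in TruSeq libraries. Atp5b was at 294 to 409 against 917 to 1245 TPM. Going the other way, Ndufa12 was at 312 to 576 against 33.0 to 96.4 TPM, and Sdhb at 781 to 950 against 116 to 189 TPM. Among mt- genes, mt-Atp6 was at 13752 to 17266 TPM in Smart-Seq2 and 253 to 938 TPM in TruSeq libraries, while mt-Nd4l was at 146 to 220 against 1486 to 3456 TPM. The most abundant mt- message was mt-Atp8 with Smart-Seq2 (38.3% to 44.2% of the mt- members) and mt-Co1 with TruSeq (33.5% to 40.8%). Of the exon bases of mt-Atp8, 21.1% are shared with mt-Atp6 on the same strand. The order of subunits by level thus differed between kits and was not compared between groups made with different ones.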

How the data were processed

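Total RNA from sorted spermatogonia was sequenced in 12 libraries. The deposited values are TPM per gene, which the authors made with RSEM 1.3.3 on GRCm38 (mm10) after trimming; no counts were used here, so the depth per library is unknown and intervals that need it are not given. TPM is a share, so a change in abundant RNAs shifts all others. Columns were matched to samples by name. Members and lists were chosen with earlier results of these data known.

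Each comparison was tested on log2(TPM + 1) with limma 3.58.1 (R 4.3.3; trend and robust, two-sided), in rows with TPM of at least 1 in at least 2 libraries, with Benjamini-Hochberg adjustment over all rows tested at a threshold of 0.05. The procedure was tested on data with planted changes. Alternatives were median-of-ratios scaling, a pseudocount of 0.1, no filter, a filter at a mean of 5 TPM, TPM rescaled without mt- rows, no trend, a replicate block and leaving out each library.

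Genes named were every mt- member, isoform pairs, 1 lead subunit per complex, the 5 largest called differences in each direction per comparison (3 as values where fewer were called), members at 0 throughout, and the 2 largest called genes of each other list. Further members named among the 18 that rose in both comparisons, or beside the kits, were chosen after their values were seen. Annotation was gencode vM21, in which all 100 members had the coordinates of the file. Promoter windows were from RefSeq.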

Additional observations from a re-analysis of the deposited data

How the results depend on the processing

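Each group held 2 libraries, and without counts the precision set by depth is unknown. Scaling by median of ratios moved the median difference of all genes from 0.15 to -0.0056 in WT, from 0.22 to -0.038 in the untreated pair, from -0.19 to 0.033 after Win18446 and from -0.41 to 0.14 in the interaction. With it, 17 nuclear members rose in WT (median 0.0859), the untreated medians were -0.176 (nuclear, against 0.13 before) and -0.551 (mt-), 60 nuclear members rose after Win18446 (median 0.553), and in the interaction 1 nuclear member passed (medians 0.881 nuclear and 1.04 mt-). With no filter on low values, where more genes were tested, 4 nuclear and 0 mt- members fell in WT and 7 nuclear members rose after Win18446. At that setting 5.52% of all genes fell in WT and 1.19% rose after Win18446. Without trend and robust moderation, 17 nuclear members rose and 4 fell in WT, 0 mt- members fell, and 14 nuclear members rose after Win18446. A pseudocount of 0.1, a mean of at least 5 TPM and rescaling without mt- rows moved no count of members by over 1.5 times. Of all genes, the share that passed in the interaction went from 7.81% to 2.56% with the pseudocount, 1.62% with the mean of 5 TPM and 2.55% with no filter, and ran from 0.116% to 8.17% without 1 library. In the untreated pair the share that fell went from 1.94% to 2.91%, 1.1% and 0% in the same order, and to 5.98% under median of ratios. The cause was not tested where none is named.

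Replicate numbers were shared between groups, with 2 pairs per comparison and no label that ties a number to an animal, batch or day, so they were not taken as pairs. Deviations of equal numbers correlated at 0.16, 0.38 and 0.12 over all genes and at 0.45, 0.87 and 0.16 over nuclear members (WT, untreated, Win18446). With a replicate block, 1 mt- member rose and 4 fell in WT, 9 nuclear members rose and 1 fell and 1 mt- member rose and 2 fell in the untreated pair, 37 nuclear members rose after Win18446, and 1 nuclear interaction was higher and 2 lower; 11.2% of all genes were then higher and 8.82% lower in the untreated pair.

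The share of all genes that passed also varied with the library left out. Leaving out 1 library at a time, where the lone library is assumed to vary like the other group, gave these ranges. In WT 12 to 33 nuclear members rose and 4 to 8 fell (median 0.208 to 0.37), 0 to 1 mt- members rose and 0 to 4 fell, and mt-Nd4l, which did not pass, ran from -0.695 to 0.449 and passed as higher without Adiff replicate 2. In the untreated pair 0 to 1 nuclear members rose, with medians of 0.00179 to 0.17 (nuclear; lowest without PRC1ctrl replicate 2) and -0.384 to -0.0234 (mt-). After Win18446 2 to 27 nuclear members rose and 0 to 1 fell (median 0.27 to 0.316), and 0 to 2 mt- members rose and 0 to 2 fell. In the interaction 0 to 4 nuclear members were higher (median 0.0654 to 0.39; 4 without untreated PRC1ctrl replicate 2).

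Of 671 values of named genes under the alternatives that kept all libraries, 637 kept their side of the threshold, 14 lost it and 20 gained it; of 402 without 1 library, 360 kept it, 26 lost it, 15 gained it and 1 (mt-Nd4l) changed sign with a call.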

Other observations

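Of the 10 rows left out of the members for "-ps" in their name, 2 held more than a few TPM. Ndufb1-ps, a complex I name that the annotation marks as a pseudogene, was at 69.2 and 58.3 TPM in WT Aundiff and 103 and 92.9 TPM in WT Adiff, at 55.9 and 54.3 against 79.8 and 98.4 TPM in the untreated pair, and at 55.3 and 45.6 against 93.3 and 69.1 TPM after Win18446. Ndufs5-ps was at 381 and 12.9 TPM in untreated PRC1ctrl, at 0.05 and 0.67 TPM in untreated PRC1cKO, and listed at 0 in the WT and Win18446 libraries.

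Within each group the difference between replicate 2 and replicate 1 followed the GC content of the longest transcript. Across the nuclear members its Spearman correlation with GC was 0.49 and 0.47 in WT Aundiff and Adiff, 0.35 and 0.39 in untreated PRC1ctrl and PRC1cKO, and 0.42 and 0.57 in these groups after Win18446. Across all genes tested it ran from 0.23 to 0.43. The correlations are across genes, which share their libraries, and are given as a description.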
